A study of Mus musculus with 7 samples.

Results

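The Hes and Hey genes and the genes that set their Notch input were examined in samples of granule neuron precursors, the dividing cells of the cerebellum that become granule neurons. The samples cannot be read as precursors alone: markers of granule neuron differentiation and of microglia, given below, were higher in the Nestin-negative ones. The set held 10 genes (Hes1, Hes5, Hes6, Hey1, Hey2, Heyl, Nrarp, Rbpj, Numb and Numbl), chosen by name, and every probe set that the platform annotation gives to exactly 1 of them, which made 18 of the 34945 probe sets with a single gene. The cells came from mice labelled Math1-Cre/Ptc-loxp/Nestin-CFP, in which Cre under Math1 control deletes the Hedgehog receptor gene Ptch1 in this lineage. Both fractions come from such mice and neither is from wild-type animals, but loss of Ptch1 in the sorted cells was not examined here. Flow sorting on the Nestin-CFP reporter gave 4 Nestin-positive samples (replicates 1, 3, 4 and 5) and 3 Nestin-negative samples (replicates 1, 4 and 5), each on 1 Affymetrix array of total RNA from uncultured cells. The age is uncertain: postnatal day 7 in the sample labels, which call the tissue medulloblastoma, and postnatal day 4 in the design text. The labels do not say which samples came from separate animals, so p-values measure the spread between these samples, which may be technical.

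Notch receptors are cut when they meet a ligand, and the freed intracellular part joins the DNA-binding protein RBPJ to switch on target genes, which RBPJ otherwise represses. Hes1, Hes5, Hey1, Hey2 and Heyl are such targets and encode basic helix-loop-helix repressors that hold back proneural genes, and Nrarp is a target that feeds back to limit the pathway. Hes6 encodes a relative that binds HES1 and opposes it, and Numb and Numbl encode endocytic adaptors that restrain Notch. In cultured mouse granule neuron precursors, activated Notch2 and Hes1 keep the cells dividing.

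The sort and the cell type were read from the arrays first. Nes, the gene of the sorting reporter, averaged 643 ± 161 in Nestin-positive and 190 ± 23.5 in Nestin-negative cells (MAS5 signal, SD, n = 4 and 3), as the sort fixes. All 10 granule neuron precursor markers, Atoh1 and Zic1 among them, reached the median of the array on each of the 4 Nestin-positive arrays. These medians were 64.4 to 94.5, and a signal under its own array's median is called dim here. Of the 11089 genes with a probe set at or above the array median on at least 3 arrays, 9860 had one on all 7. The count of 10 therefore does not single out precursor genes. Their summed signal was 70186 to 81538 in Nestin-positive and 74368 to 80289 in Nestin-negative samples, with a median log2 change of -0.02. The sums overlapped, so they do not mark the Nestin-positive fraction. Without a block, limma called 0 of the 10. In the fit with the replicate number as a block, given below, 3 of the 10 were called higher and 0 lower. That fit called 3.58% of all genes higher and 6.39% lower. On Nestin-positive replicate 3, which has no same-numbered partner, the summed signal of the astrocyte and Bergmann glia markers was 38127, where the remaining Nestin-positive arrays had 11774 to 19854 and the Nestin-negative arrays 9216 to 26882. The pericyte and smooth muscle markers summed to 557 to 1909 on Nestin-positive arrays, and to 1288, 7217 and 9163 on Nestin-negative replicates 1, 4 and 5.

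Of the 10 genes, 8 had a probe set at or above the array median on at least 3 arrays and were tested, while Hey2 and Heyl did not pass this filter. Limma without a block called 0 of the 8 at an adjusted p of 0.05, where 0.748% of all 11089 genes were called (0.171% higher and 0.577% lower), and 3 had an unadjusted p under 0.05 (Hes1, Hes6 and Numbl), against 14.4% of all genes. With the replicate number as a block, 1 was called, Hes1, against 9.97% of all genes (3.58% higher and 6.39% lower). The block treats same-numbered samples as pairs, which was taken from correlations in these data and not from the labels. Among the 12 member probe sets that passed the filter, limma called 0 without the block, as it did of all 23585 probe sets (0%), with 4 members at an unadjusted p under 0.05, against 9.68% of all probe sets. With the block it called 1, that of Hes1, against 4.26% of all probe sets (1.26% higher). The 8 log2 changes had a median of 0.10, against -0.03 over all genes. The Nestin-positive and Nestin-negative arrays did not overlap for Hes1 and Hes6, which were higher, and for Numbl, which was lower, against 15.0% of all genes (5.87% higher and 9.11% lower).

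**Figure D1:**
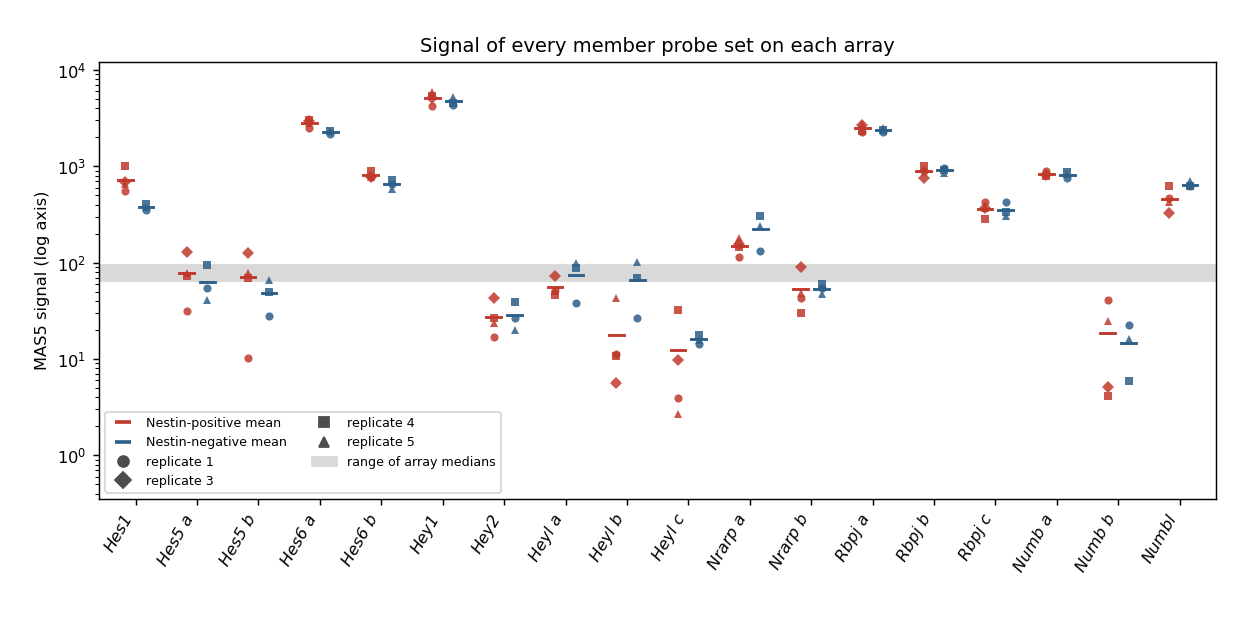
MAS5 signal of the 18 probe sets on a log axis, with Nestin-positive arrays (red) left of Nestin-negative arrays (blue), a bar at each group mean, 1 symbol per replicate number and the range of the array medians in grey; probe sets of 1 gene are lettered from the brightest. Hes1 lies at 555 to 1004 in Nestin-positive and 349.7 to 404 in Nestin-negative samples, while the probe sets of Hey2 and Heyl lie within or below the grey band apart from 1 Heyl probe set on Nestin-negative replicate 5 (99.1) and another there (103).

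Rbpj, the DNA-binding hub of the pathway, was bright and was not called on any of its 3 probe sets. The brightest gave 2248, 2705, 2354 and 2776 on Nestin-positive replicates 1, 3, 4 and 5, against 2250.0, 2411 and 2509 on Nestin-negative replicates 1, 4 and 5. The groups overlapped, and the log2 change was 0.07 ± 0.12 (SE; limma, adjusted p = 0.83), with a 95% interval of -0.19 to 0.33. The others had log2 changes of -0.02 ± 0.13 and 0.03 ± 0.19.

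Hes1, the Notch target that maintains progenitors, had the largest change of the 8 tested members. Its single probe set gave 555, 695, 1004 and 663 on Nestin-positive replicates 1, 3, 4 and 5, against 349.7, 404 and 378 on Nestin-negative replicates 1, 4 and 5. Every Nestin-positive sample lay above every Nestin-negative one, and Nestin-positive replicate 4 was the highest. The means were 729 ± 193 in Nestin-positive and 377 ± 27.1 in Nestin-negative cells (SD, n = 4 and 3). The log2 change was 0.92 ± 0.19 (SE), or 1.89-fold, with an adjusted p of 0.0692 in limma without the block. With the block, Hes1 rose 1.91-fold, a log2 change of 0.93 ± 0.14 (SE; limma, adjusted p = 0.000149), and the differences within pairs 1, 4 and 5 were 0.67, 1.31 and 0.81. Leaving out 1 array at a time without the block gave log2 changes of 0.75 to 1.04 (adjusted p 0.0580 to 0.188). These are bulk RNA values, in which more cells of a kind and more RNA per cell cannot be told apart.

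Hes5, the other main Notch effector of neural progenitors, was near the array median and gave no stable direction. Its brighter probe set gave 31.3, 129, 73.0 and 78.8 on Nestin-positive replicates 1, 3, 4 and 5, against 54.4, 94.4 and 41.4 on Nestin-negative replicates 1, 4 and 5. The second gave 10.3, 127, 69.4 and 77.3 in Nestin-positive samples, against 28.0, 49.7 and 65.8 in Nestin-negative samples. Both were highest on Nestin-positive replicate 3, the array with the highest astrocyte marker sum, whose part in this value was not tested. The log2 change was 0.22 ± 0.50 (SE; limma, adjusted p = 0.883), with a 95% interval of -0.90 to 1.34, and it was -0.08 when Nestin-positive replicate 3 was left out and -0.05 when Nestin-negative replicate 5 was. The block fit gave -0.08 ± 0.38.

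Hey1, a related repressor that lies downstream of Notch in many tissues, was well above the array median on every array and was not called. It gave 4261, 5135, 5422 and 5912 on Nestin-positive replicates 1, 3, 4 and 5, against 4331, 4595 and 5285 on Nestin-negative replicates 1, 4 and 5. The groups overlapped, with a log2 change of 0.12 ± 0.13 (SE; limma, adjusted p = 0.727) and a 95% interval of -0.17 to 0.42. On both fractions replicate 1 was lowest and replicate 5 highest.

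Hey2 and Heyl are known best from blood vessels and their smooth muscle. Hey2 was dim on every array, and Heyl on every Nestin-positive array. The Hey2 probe set gave 17.1 to 43.0 in Nestin-positive and 20.0 to 38.7 in Nestin-negative samples, below the array median on all 7 arrays. The 3 Heyl probe sets lay below it on all Nestin-positive arrays. The brightest of them gave 46.3 to 72.6 in Nestin-positive samples, against 38.0, 87.2 and 99.1 on Nestin-negative replicates 1, 4 and 5. A second gave 5.69 to 42.7 in Nestin-positive samples, against 26.6, 69.6 and 103 in Nestin-negative samples. The third gave 2.68 to 32.6 in Nestin-positive and 14.4 to 17.7 in Nestin-negative samples. The first lay above the array median on Nestin-negative replicates 4 and 5, and the second on Nestin-negative replicate 5. The first and second were highest on Nestin-negative replicates 4 and 5, the arrays with the highest pericyte marker sums, whose part in this was not tested. Without the filter on dim probe sets, limma gave the second an adjusted p of 0.547, and no Hey2 or Heyl probe set was called.

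Promoter windows from RefSeq (GRCm38.p6, 250 bases before to 50 after the start site) were available for 7 of the 10 genes, with 11 windows in all. They are shown for Hes5 and Hey2, whose windows hold GTGGGAA, a sequence that RBPJ binds, and for Hes6, whose windows do not. Both strands were searched, and capitals mark each match, which reads TTCCCAC where it lies on the opposite strand. The Hes5 window is chr4:154960673-154960972 (plus strand), that of Hey2 chr10:30842734-30843033 (minus strand) and that of the second Hes6 start chr1:91413173-91413472 (minus strand).
Hes5: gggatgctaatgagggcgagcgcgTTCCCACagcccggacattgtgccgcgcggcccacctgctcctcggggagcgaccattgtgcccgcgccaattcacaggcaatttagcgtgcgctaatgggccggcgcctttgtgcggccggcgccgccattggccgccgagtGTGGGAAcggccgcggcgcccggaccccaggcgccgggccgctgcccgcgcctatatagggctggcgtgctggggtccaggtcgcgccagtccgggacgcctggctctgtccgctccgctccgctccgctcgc
Hey2: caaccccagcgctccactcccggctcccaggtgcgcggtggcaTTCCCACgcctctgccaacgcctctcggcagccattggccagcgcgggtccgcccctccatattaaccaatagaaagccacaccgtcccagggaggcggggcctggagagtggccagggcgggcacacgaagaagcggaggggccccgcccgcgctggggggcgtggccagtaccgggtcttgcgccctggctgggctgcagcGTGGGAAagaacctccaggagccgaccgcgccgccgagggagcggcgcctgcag
Hes6: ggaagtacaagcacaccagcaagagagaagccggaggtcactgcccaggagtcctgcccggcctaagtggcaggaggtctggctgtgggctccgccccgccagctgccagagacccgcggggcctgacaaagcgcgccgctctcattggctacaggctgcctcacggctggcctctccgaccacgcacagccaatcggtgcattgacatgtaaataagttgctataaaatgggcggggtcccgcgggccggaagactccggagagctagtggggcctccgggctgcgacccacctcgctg
The Hes5 window holds 2 matches, which begin 226 bases (opposite strand) and 83 bases (gene strand) before the start site, and the Hey2 window holds 2, at 207 bases (opposite strand) and 4 bases (gene strand) before it. The same letters occur in 6.38% of the 32851 RefSeq windows of this length. On these arrays Hes5 was near the median and Hey2 below it, with no call for either. The windows of Nrarp, Rbpj, Numb and Numbl held no match, which says only that these letters are not in this stretch, and a match is a description and not a site of binding.

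Nrarp, the feedback inhibitor, did not pass the test. Its brighter probe set gave 114, 156, 144 and 179 on Nestin-positive replicates 1, 3, 4 and 5, against 132, 304 and 241 on Nestin-negative replicates 1, 4 and 5. The groups overlapped through Nestin-negative replicate 1. The log2 change was -0.54 ± 0.30 (SE; limma, adjusted p = 0.458), and -0.57 ± 0.21 with the block (adjusted p = 0.0953), and all 3 pairs had the lower signal on the Nestin-positive side, as for 23.0% of all genes. Its high values stood on the 2 Nestin-negative arrays with the highest pericyte and meningeal marker sums, whose part in this was not tested. The endothelial marker sum was 529, 906, 2024 and 1483 on Nestin-positive replicates 1, 3, 4 and 5, against 743, 2216 and 2248 on Nestin-negative replicates 1, 4 and 5. Leaving out Nestin-negative replicate 1 gave -0.89 and leaving out Nestin-negative replicate 4 gave -0.29. The dimmer Nrarp probe set lay at 30.1 to 89.8 in Nestin-positive and 46.8 to 59.3 in Nestin-negative samples.

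Hes6, whose protein opposes HES1, gave a small difference of like size on both of its probe sets. The brighter gave 2522, 2929.7, 3038 and 2807 on Nestin-positive replicates 1, 3, 4 and 5, against 2145, 2318 and 2347 on Nestin-negative replicates 1, 4 and 5. The second gave 781, 769, 901 and 768 in Nestin-positive samples, against 655, 719 and 579.8 in Nestin-negative samples. The fractions did not overlap on either. The brighter had a log2 change of 0.31 ± 0.11 (SE), or 1.24-fold (limma, adjusted p = 0.226; 0.0736 with the block), and the second, fitted among all kept probe sets, 0.31 ± 0.13 (adjusted p = 0.496; 0.176 with the block). The differences within pairs 1, 4 and 5 were 0.23, 0.39 and 0.26, higher in all 3, as for 19.0% of all genes. The brighter probe set belongs to a class whose probes can also match other transcripts, so that the second is the more specific reading. Hes6 passed in 1 setting, the fit with the replicate number as a random block (limma, adjusted p = 0.0487).

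Numb, the adaptor that restrains Notch, did not differ detectably. It gave 893, 804, 801 and 844 on Nestin-positive replicates 1, 3, 4 and 5, against 751, 868 and 833 on Nestin-negative replicates 1, 4 and 5, a log2 change of 0.03 ± 0.12 (SE; limma, adjusted p = 0.931; 95% interval -0.23 to 0.295). Its second probe set was below the array median on all 7 arrays. Numbl, the neural paralogue, gave 466, 325, 620.0 and 428 on Nestin-positive replicates 1, 3, 4 and 5, against 620.6, 622 and 701 on Nestin-negative replicates 1, 4 and 5. The groups did not overlap, although Nestin-positive replicate 4 lay just under the lowest Nestin-negative value. The log2 change was -0.53 ± 0.20 (SE; limma, adjusted p = 0.262), and -0.38 ± 0.14 with the block (adjusted p = 0.106), where the pairs gave -0.41, -0.0038 and -0.71. Nestin-positive replicate 3, which the pairs leave out, had the lowest Numbl signal.

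**Figure D2:**
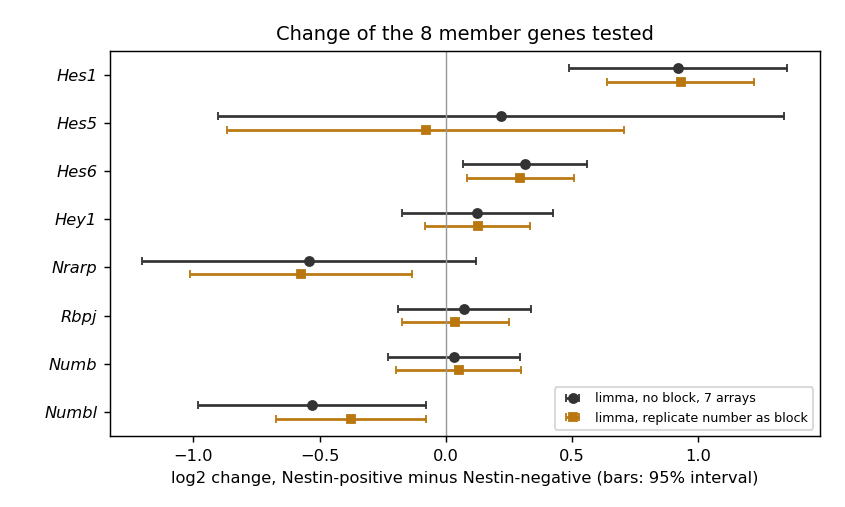
Log2 change (Nestin-positive minus Nestin-negative) of the 8 tested genes with 95% intervals, from limma without a block (circles) and from the blocked fit (squares). The interval of Hes1 runs from 0.49 to 1.35 without the block and from 0.64 to 1.22 with it, while those of Hes5, Hey1, Rbpj and Numb include 0 in both fits.

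The rest of the Notch pathway, including the proneural and Id genes, was covered by lists with 75 tested genes. Without the block 1 was called higher and 1 lower, against 0.171% and 0.577% of all genes, and with it 5 higher and 9 lower, against 3.58% and 6.39%. The proneural and Id lists held 13 of the 75 genes and gave 2 of the higher and 4 of the lower calls with the block. The median of all 75 log2 changes was -0.03, the same as over all genes. Among 7 ligands, Jag1, a Notch ligand, rose 2.63-fold (limma, adjusted p = 0.0282) and gave 1318, 2061, 1438 and 1504 in Nestin-positive samples, against 486, 697 and 611 in Nestin-negative samples. Its call was lost without Nestin-positive replicate 5 or any 1 Nestin-negative array (adjusted p 0.0525 to 0.118) and without the intensity trend (0.0547), while the log2 change stayed at 1.25 to 1.51 with 1 array left out, and with the block it was 1.26 ± 0.12 (SE; adjusted p = 5.34e-07). Dner, a neuronal protein related to the ligands, and Cntn1, an axonal adhesion protein reported to bind Notch, fell with the block by 0.71 ± 0.11 and 1.12 ± 0.14 (SE) on the log2 scale (adjusted p = 0.000319 and 1.63e-05; 0.0536 and 0.15 without it). Among the 4 receptors, Notch1 rose with the block by 0.80 ± 0.13 (adjusted p = 0.00033; 0.0935 without it). It gave 959.8, 955, 1355 and 879.7 in Nestin-positive samples, against 491, 676 and 656 in Nestin-negative samples. Notch2 was not called, with log2 changes of 0.39 ± 0.15 (SE; limma, adjusted p = 0.284) and 0.35 ± 0.12 with the block (adjusted p = 0.0626). Its groups overlapped. Notch3, a receptor of pericytes, fell with the block by 0.96 ± 0.25 (adjusted p = 0.0142; 0.586 without it), but lay below the array median on replicate 1 of both fractions and was not called with the block when replicate 5 was left out (adjusted p = 0.294). Of the 7 pericyte markers tested, 6 fell with the block as well, and their part in the Notch3 value was not tested.

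The machinery between receptor and target genes is given list by list. Over all genes, limma called 0.748% without the block and 9.97% with it, and 14.4% had an unadjusted p under 0.05 without the block. Of the 5 glycosyltransferases (median log2 change 0.30), 8 cleavage genes (-0.08) and 6 coactivators (0.00), limma called 0 in either fit, with 1, 1 and 0 at an unadjusted p under 0.05 without the block. The smallest p-values of the glycosyltransferases belonged to the fringe enzymes Mfng and Lfng (log2 changes 0.31 ± 0.14 and 0.50 ± 0.29, SE). Another fringe enzyme of that list, Rfng, went the other way (-0.25 ± 0.16). Those of the other lists belonged to Aph1b and Psen2, parts of gamma-secretase (-0.37 ± 0.15 and -0.34 ± 0.18), and to the coactivators Snw1 and Kat2b (0.10 ± 0.11 and -0.09 ± 0.11). The limma adjusted p of these genes was 0.305 to 0.774. Among 14 corepressor genes, Tle1, a Groucho-type corepressor that HES proteins recruit, rose with the block by 0.39 ± 0.10 (adjusted p = 0.0133; 0.106 without it, and 0.0551 with the block and without replicate 5), and the other 13 were not called. Among 18 ubiquitin ligase and trafficking genes, Neurl1a, a neuralized-type ligase, fell with the block by 1.07 ± 0.19 (adjusted p = 0.00102; 0.102 without it) and Dtx1, a deltex ligase that binds Notch, by 0.40 ± 0.10 (adjusted p = 0.0168; 0.229 without it, and 0.136 and 0.106 with the block and without replicates 1 and 5). Of the 6 other Hes-related genes listed, 5 had a probe set and none passed the filter.

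Of 9 genes in the list of proneural genes, which Hes proteins hold back, and their partners, 2 rose and 2 fell with the block, against 3.58% and 6.39% of all genes. Tcf3 is in this list as a partner. Neurod2, a factor of maturing neurons, fell 2.06-fold (limma, adjusted p = 0.0303), but the call was lost without Nestin-positive replicate 1 or 5 or any 1 Nestin-negative array (adjusted p 0.0642 to 0.119), and with quantile normalization, probe set means or no trend (0.0547 to 0.0701). With the block its log2 change was -1.05 ± 0.14 (SE; adjusted p = 6.72e-05). Neurod1, a relative in newly formed granule neurons, fell with the block by 0.49 ± 0.11 (adjusted p = 0.00656; 0.0778 without it). Atoh1, which defines the precursors, rose with the block by 0.35 ± 0.10 (adjusted p = 0.0366; 0.576 without it), as did the E protein gene Tcf3, by 0.35 ± 0.10 (adjusted p = 0.0369; 0.817 without it). With the block, Atoh1 was not called without replicate 1 or 4 (adjusted p = 0.0584 and 0.153), nor Tcf3 without replicate 4 or 5 (0.0512 and 0.358). The Id genes encode inhibitors of these factors, and Id3 and Id4 fell with the block by 1.02 ± 0.23 and 1.07 ± 0.17 (adjusted p = 0.0056 and 0.0003; 0.734 and 0.504 without it), Id3 being dim on replicate 1 of both fractions and not called with the block when replicate 5 was left out (adjusted p = 0.0861). Id4 gave 128, 454, 202 and 221 on Nestin-positive replicates 1, 3, 4 and 5, against 198, 539.6 and 492 on Nestin-negative replicates 1, 4 and 5. Of the 13 astrocyte and Bergmann glia markers, 6 fell and 2 rose with the block, and their sum was 11774, 38127, 19259 and 19854 on the same Nestin-positive arrays, against 9216, 26882 and 26377 on the Nestin-negative ones. The part of these cells in the Id3 and Id4 values was not tested.

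**Figure D3:**
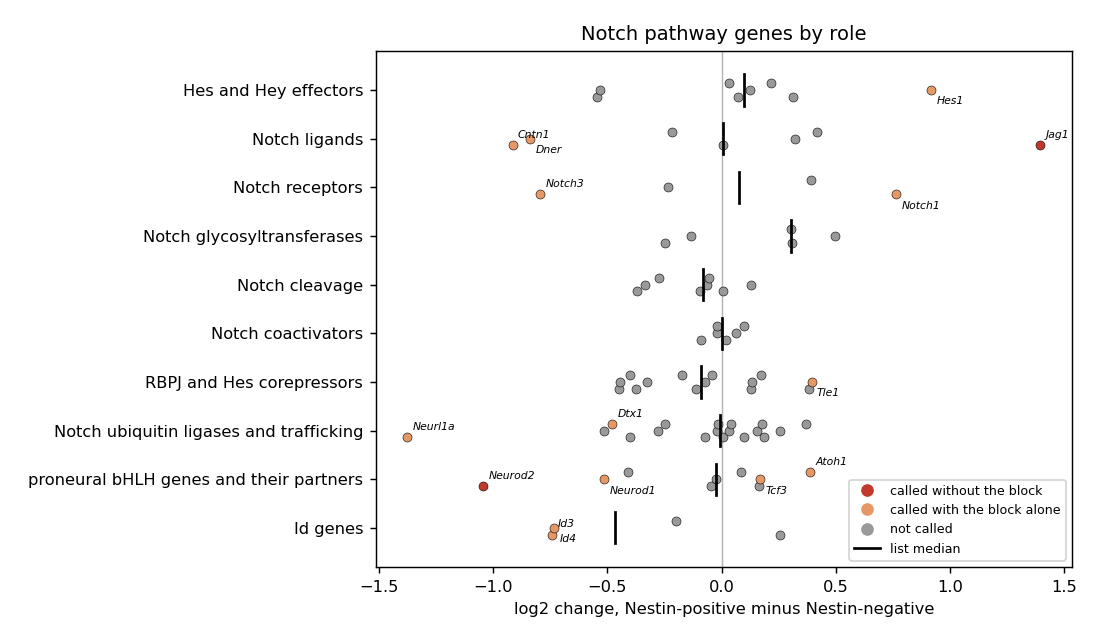
Log2 change without the block of each tested gene (dots, Nestin-positive minus Nestin-negative) by role in the pathway, with list medians as black bars; red dots passed without the block, orange dots with it alone, and the vertical spread within a row has no meaning. Jag1 (1.40), Hes1 (0.92) and Notch1 (0.76) lie farthest to the right, and the coactivators lie between -0.09 and 0.10.

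**Figure D4:**
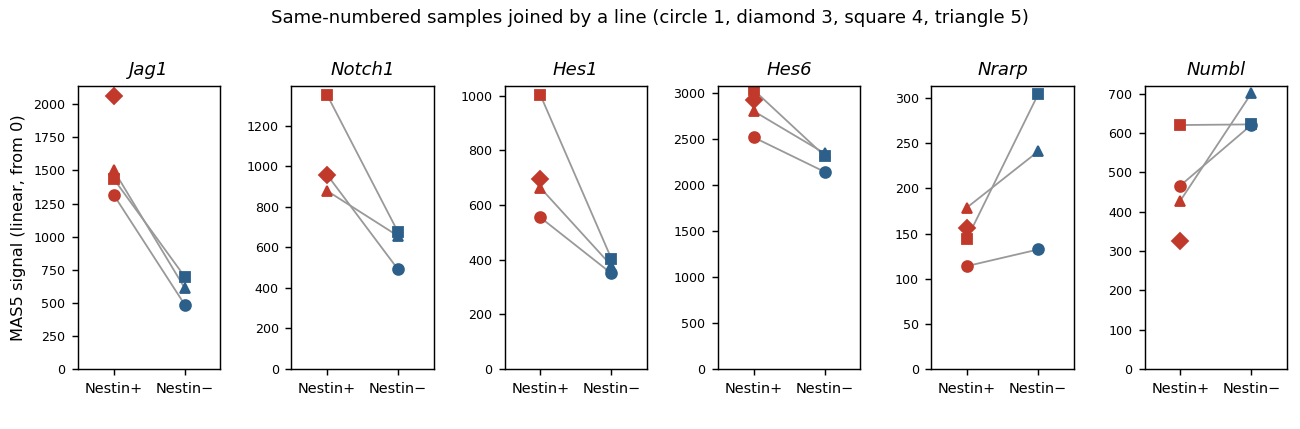
MAS5 signal on linear axes from 0 for 6 genes, with Nestin-positive samples at the left of each panel and same-numbered samples joined. In all 3 pairs the Nestin-positive sample is higher for Jag1, Notch1, Hes1 and Hes6 and lower for Nrarp and Numbl, with nearly level lines for Numbl in pair 4 and Nrarp in pair 1.

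Several marker lists of other cells moved between the same arrays. Over all genes, 0.577% fell without the block, and with it 6.39% fell and 3.58% rose. The granule neuron differentiation markers (13 of 16 tested) summed to 54307 to 66692 in Nestin-positive and 78404 to 88372 in Nestin-negative samples, and 3 fell without the block (Neurod2, L1cam and Mapt) and 10 with it; Neurod2 is in the proneural list as well. The microglia and macrophage markers (9 of 11 tested) summed to 291 to 1094 in Nestin-positive and 2077 to 7925 in Nestin-negative samples. Of the 9, 2 fell without the block (Lyz2 and Csf1r) and 9 with it, and 0 reached the array median on each of the Nestin-positive arrays. The filter of 3 arrays can be met by the 3 Nestin-negative arrays alone, as it was for Lyz2 and C1qc. Counts of markers that fell can therefore be partly fixed by the filter. The meningeal fibroblast markers (5 of 8 tested) summed to 3546 to 5463 in Nestin-positive and 4988 to 10812 in Nestin-negative samples, and 4 fell with the block. Of the endothelial markers (10 of 14 tested), 0 were called in either fit. The pericyte markers counted above were 7 of 10. The GABAergic interneuron markers (4 of 8 tested) summed to 3012 to 3612 in Nestin-positive and 4155 to 5288 in Nestin-negative samples, and 2 fell with the block, Gad1 and Tfap2b. Gad1, the gene of a GABA-synthesising enzyme, gave 0.952 to 67.4 in Nestin-positive and 269 to 434 in Nestin-negative samples. Of 5 oligodendrocyte lineage markers tested, with sums of 3187 to 4553 in Nestin-positive and 3735 to 4443 in Nestin-negative samples, 2 fell with the block (Cnp and Gpr17) and 2 rose (Olig1 and Olig2). The part of these cells in the Hes1 and Notch1 values was not tested. Hes1 was higher by 0.67, 1.31 and 0.81 within pairs 1, 4 and 5, and by 1.06 with the block and without replicate 1. In pair 1 the Nestin-positive and Nestin-negative sums were 557 and 1288 for pericyte markers and 291 and 2077 for microglia markers. They were 54307 and 88372 for differentiation markers, and 11774 and 9216 for astrocyte and Bergmann glia markers. In pair 4 the sums in the same order were 1909 and 7217, 637 and 3051, 66692 and 79086, and 19259 and 26882. In pair 5 they were 1832 and 9163, 1094 and 7925, 63575 and 78404, and 19854 and 26377.

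**Figure D5:**
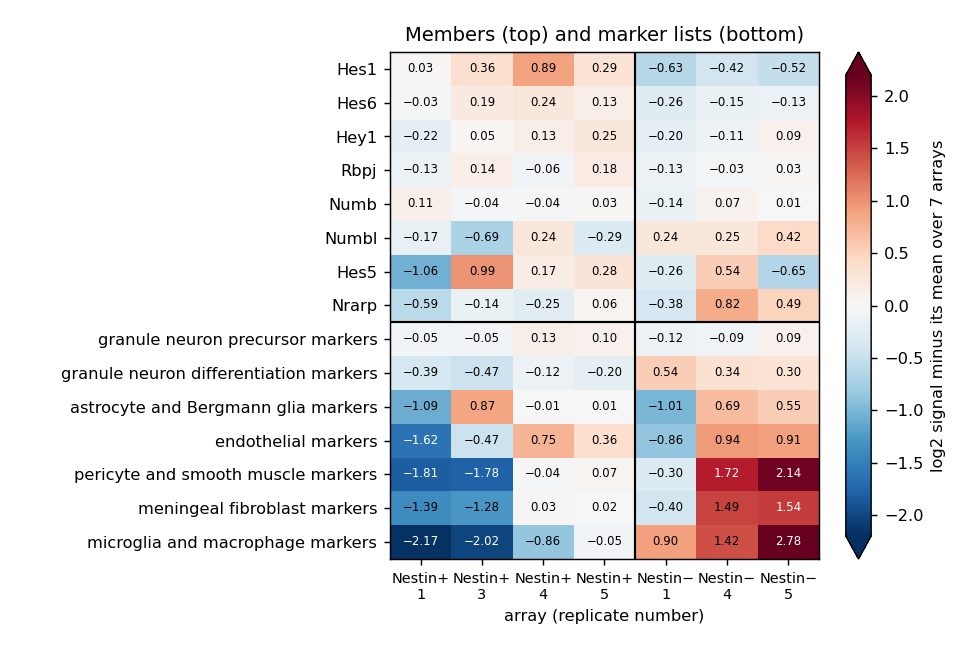
Log2 signal minus its mean over the 7 arrays for the 8 tested genes (top) and the mean of the same quantity over each marker list (bottom), with Nestin-positive arrays at the left; the colour scale ends before the most extreme list values, which are printed. Hes1 is above its mean on all 4 Nestin-positive arrays and below it on all 3 Nestin-negative arrays, Hes5 is highest on Nestin-positive replicate 3, as are the astrocyte markers, and Nrarp is highest on Nestin-negative replicates 4 and 5, as are the pericyte and meningeal markers.

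Likeness of pattern was measured as the mean absolute difference between log2 signals centred over the 7 arrays, as a description of these arrays. The genes most like Hes1 were Septin8 (0.13), Samd4 (0.14), Rhoq (0.15), Tom1l1 (0.16) and Notch1 (0.16), where the mean absolute deviation of Hes1 itself was 0.45. The genes most like Hes6 were E2f3, Cdca7, Isoc1, Psrc1 and Prim2, with differences of 0.04 to 0.05 against a mean absolute deviation of 0.16.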

How the data were processed

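Biotin-labelled cRNA made from total RNA of the sorted cells was read on Affymetrix 430 2.0 mouse arrays with 1 colour, per the labels' protocols. The authors deposited MAS5 signal, a linear intensity per probe set, as the submitters' processing notes name the tool; its version and settings are not stated there. Each array's mean without the lowest and highest 2% was 500.0, as read from the values. Groups and replicate numbers were taken from the sample titles. Of 45101 probe sets, 64 controls were left out; the platform annotation gave 1 gene for 34945, several for 932 and none for 9160, and symbols were updated by Entrez ID (34741 matched). Intensity was analysed as log2 with no pseudocount. Probe sets at or above the array median on at least 3 arrays were kept (23585), and the brightest stood for its gene (11089 genes).

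All 7 arrays entered limma 3.58.1 in R 4.3.3 (eBayes with an intensity trend, two-sided, Benjamini-Hochberg over all genes, threshold 0.05), with statmod 1.5.0 for the random block. A second fit on all kept probe sets covers each member probe set. A test on simulated data, with independent noise between arrays, covered the gene fit without the block and did not cover the blocked fits. Deviations from group means correlated across genes at r = 0.39 to 0.71 for same-numbered samples (3 pairs) and -0.60 to 0.19 for others, so replicate numbers were taken to pair samples, from the data and not from the labels. The blocked fit leaves Nestin-positive replicate 3 without weight on the change and has 19.8 degrees of freedom after moderation, mostly from spread pooled over genes. Marker and pathway lists, members and the rule for named genes (all members; of each pathway list the genes called in either fit, at most 6, otherwise the 2 with the smallest p; the 5 genes most like Hes1 and the 5 most like Hes6; Nes; up to 3 of a marker list by p) were chosen with earlier results of these data known. Rfng and Notch2 are named outside this rule. Alternatives covered the block, each array left out, normalization, a pseudocount of 32, a floor, filters, the trend and the probe set rule. The depth of an array has no count, and the number of arrays limits the precision.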

Additional observations from a re-analysis of the deposited data

Results flagged for a closer look

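The second probe set of Hes6 gave 901 on Nestin-positive replicate 4, above the 768 to 781 of the other 3 Nestin-positive samples, whose spread is small. It was the only one of the 18 member probe sets whose extreme Nestin-positive sample passed Dixon's test at the 95% level (statistic 0.898), and chance passes about 1 group in 20. The Nestin-negative group of 3 is too small for this check. Without this array the log2 change of Hes6, read from its brighter probe set, was 0.28.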

How the results depend on the processing

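The log2 changes of Hes1, Hes6, Hey1, Nrarp and Numbl kept their sign in all 20 alternatives; Hes1 ranged from 0.74 to 1.06 and was called in 6 of these, all with a replicate block. Hes6 (adjusted p = 0.0487 with the random block), Nrarp (0.02, blocked without replicate 1) and Numbl (0.0123, blocked without replicate 4) were each called once. Hes5 reversed to -0.080 with the replicate block and -0.093 with it and dim values raised (an alternative chosen after seeing the data), ranged from -0.080 to 0.60 with each array left out, and was -0.59 with the block and without replicate 5. Numb ranged from -0.027 to 0.077 with each array left out and was -0.049 with the block and without replicate 1, and Rbpj was -0.018 with the block and without replicate 5. Hes5 had no value with the filter on all 7 arrays. The cause of these reversals was not tested.

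Member genes called numbered 0 without a block, 1 with the replicate block, 2 with the random block, 1 with the block and dim values raised, and 0 to 2 with arrays or pairs left out; member probe sets 0, 1, 1, 1 and 0 to 2. Notch pathway genes called numbered 2 without a block, 14, 9 and 13 with these blocks, 0 to 2 with each array left out, 12, 15 and 10 with the block and without replicates 1, 4 and 5, 1 with quantile normalization, 1 with probe set means and 0 without the trend (15 at an unadjusted p under 0.05). Genes called overall numbered 83, and 1106, 854 and 978 with these blocks, 22 with quantile normalization, 52 without the filter, 43 with probe set means, 0 without the trend (1573 unadjusted), and 717, 1419 and 904 with the block and without replicates 1, 4 and 5. Without the block, each array left out gave 0 to 97 genes: 10 and 45 without Nestin-positive replicates 1 and 3, 0 without Nestin-positive replicate 5 or Nestin-negative replicate 4 (1320 and 1158 unadjusted), and 5 and 1 without Nestin-negative replicates 1 and 5. No setting moved the median of all genes by over 0.1.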
